A study of Rattus norvegicus with 16 samples.

Results

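The mitogen-activated protein (MAP) kinases relay signals from receptors at the cell surface to the nucleus and the synapse. An upstream kinase kinase kinase activates a MAP kinase kinase, which activates the MAP kinase itself, and scaffold proteins hold the members of a cascade together. In the spinal dorsal horn, where pain fibres from the body end, the ERK, JNK and p38 branches are known for their part in pain hypersensitivity after injury. Here 8 genes of these branches were named: Mapk3 (ERK1), its activator Map2k1 (MEK1), the JNK kinases Mapk8, Mapk9 and Mapk10, the p38 kinase Mapk14, the upstream kinase Map3k7 (TAK1) and Spag9, a scaffold also called JIP4 that binds JNK and motor proteins. The genes were taken by symbol from the authors' table of an RNA immunoprecipitation (RIP), which holds 8671 genes. A row existed for 6 of the 8 genes; Mapk8 and Map3k7 had none, and their peaks were not analysed here.

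The study profiled N4-acetylcytidine (ac4C), an acetylated cytidine in RNA, in the dorsal horn of rats labelled wild type. In the ac4C experiment, 3 rats or pools with bone cancer pain were compared with 3 normal controls, and each replicate gave a library of precipitated RNA (IP) and an input library. The separate RIP was made in bone cancer pain alone, with 2 IP and 2 input libraries, and its antibody target was not stated in the labels. The labels give no strain, sex, age or time point, and do not say whether a replicate is 1 animal. They call the replicates biological, and the p-values of the tests run here between the groups measure the spread between replicates. The names of these rats' peak lists contain the letters CFA where the labels say bone cancer pain, and the groups used here follow the labels.

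The ac4C data were 6 lists of called peaks, 1 per IP and input pair, with a false discovery rate (FDR) and a fold of IP over input for each peak. The FDR of a peak comes from 1 such pair and does not measure the spread between replicates. No file gives read depth, so the precision behind a peak is unknown. Limited to an FDR of 0.05 or less, each bone cancer pain list held 899 to 1240 peaks and each control list 916 to 1074, and 3805 genes had a peak in any list. As deposited, bone cancer pain list 1 held 50417 peaks, of which 49281 had the same fold of 10.6, against 1173 to 2416 in the other 5 lists. Those 50417 peaks lay in 29130 of the 29990 genes with a peak as deposited. The members' states are therefore given under the FDR limit first and as deposited beside it. Of these 3805 genes, 69.3% had a peak in 1 list, 21.5% in 2 and 0.368% in all 6. In the RIP table, 14 of 22 markers of dorsal horn neurons had a row, among them Pax2, Gad1, Slc6a5, Tac1, Sst and Penk, whereas Lmx1b, Tlx3 and Lbx1 had none. Rows also existed for 5 of 7 general neuronal, 8 of 8 oligodendrocyte, 6 of 6 astrocyte and 4 of 7 microglial markers. In such bulk RNA, a change in cell numbers and a change in RNA per cell cannot be told apart.

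Under the FDR limit, ac4C peaks lay in bone cancer pain lists alone for the 5 kinases and in all 6 lists for the scaffold Spag9. Mapk3 and Mapk9 each appeared in 2 of the bone cancer pain lists but 0 control lists, while Map2k1, Mapk10 and Mapk14 appeared in bone cancer pain list 1 only. Gained means here that at least 2 bone cancer pain lists and 0 control lists held a peak of the gene, and lost means the reverse. By this count 2 of the 6 genes were gained and 0 were lost, against 4.44% gained and 4.15% lost of all 3805 genes with a peak. The 6 genes were brought together with earlier results of these data known, so this count is no independent evidence of a direction. Peaks in bone cancer pain lists alone were also found in 39.7% of all genes with a peak, and peaks in control lists alone in 38.2%.

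The exact tests used here could not pass 0.05 for any single gene, since with 3 lists against 3 the smallest two-sided exact p is 0.10. Fisher's exact test gave p = 0.4 for Mapk3 and for Mapk9, and an adjusted p of 1 for each after Benjamini-Hochberg adjustment over all 3805 genes. Fisher's exact test called 0 of 3805 genes at an adjusted p of at most 0.05 (percent called, 0), and 0 genes had an unadjusted p under 0.05. The exact permutation test on the number of peaks per list also called 0 genes, and 0 at an unadjusted p under 0.05. The number of members with a peak was 6, 3 and 1 in bone cancer pain lists 1, 2 and 3, and 1 in each control list. Bone cancer pain lists 1, 2 and 3 held 22.6%, 28.7% and 21.9% of all genes with a peak under the limit. Controls 1, 2 and 3 held 22.0%, 25.2% and 23.9%.

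**Figure D1:**
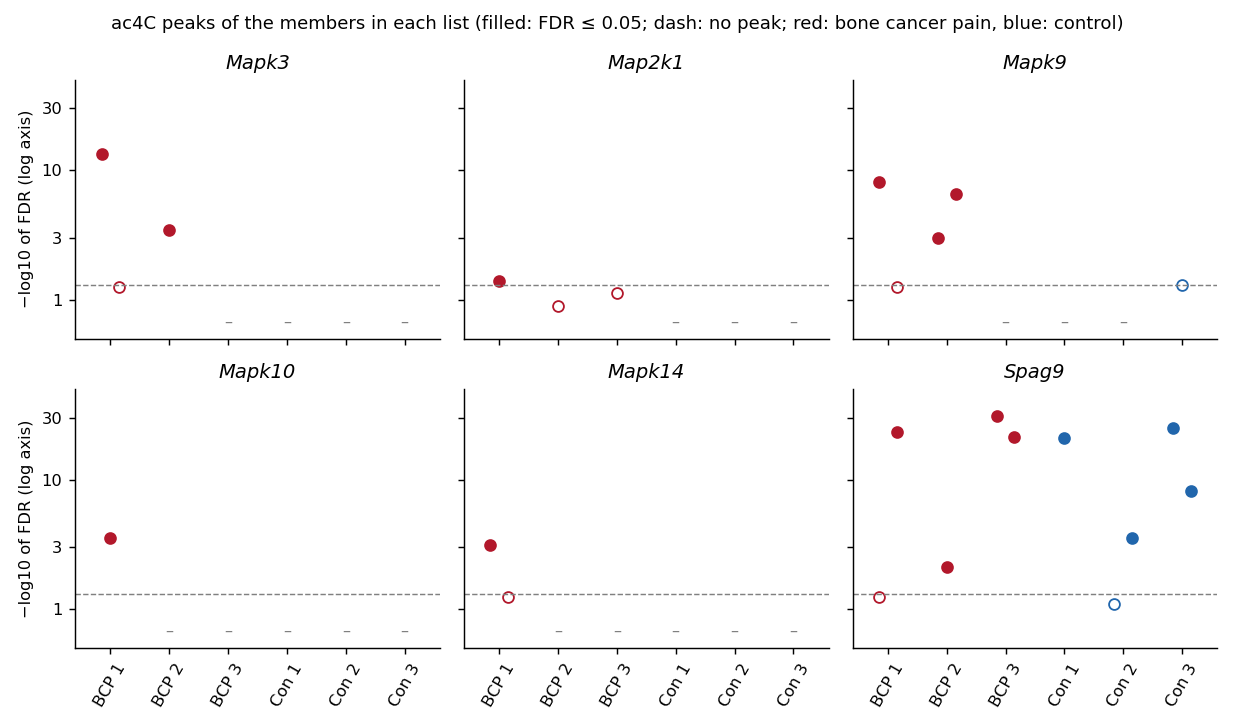
Each point is an ac4C peak (red, bone cancer pain; blue, control), placed by list (BCP, bone cancer pain replicates 1 to 3; Con, control replicates 1 to 3) and by −log10 of the authors' FDR on a log axis; the dashed line is an FDR of 0.05, filled points are within it, and a dash marks a list without a peak. Mapk3, Mapk10, Mapk14 and Map2k1 have points in bone cancer pain lists alone, Mapk9 has 1 open point in control 3 just under the line, and Spag9 has filled points in all 6 lists.

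In the ERK branch, Mapk3 encodes the kinase that ends the cascade and Map2k1 the kinase that activates it. In bone cancer pain list 1, Mapk3 had its peak of lowest FDR, on chromosome 1 (plus strand) from 198197422 to 198197728 (rn6), with a fold of 3.81 and an FDR of 3.98e-14. In bone cancer pain list 2 its peak lay from 198192862 to 198193927, with a fold of 10.5 and an FDR of 0.000363. No Mapk3 peak was listed in bone cancer pain 3 or in any control. The 2 peaks thus covered different stretches of the transcript, with a gap of 3494 bp between them in the genome, and each consisted of 2 blocks. By p-value they ranked 288th of 919 and 745th of 1240 peaks within their lists. The fold of 10.5 in list 2 was shared by 667 of its 2416 peaks. A further Mapk3 peak of list 1, from 198198649 to 198198827, had an FDR of 0.0562. Mapk3 counted as gained under the limit and also as deposited, where 4.41% of 29990 genes were gained and 0.22% were lost. Among the 8671 genes with a row in the RIP table, from which the members were taken, 11.3% were gained as deposited and 1.8% under the limit.

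Map2k1 changed its state with the limit. In bone cancer pain list 1 its peak, on the minus strand of chromosome 8 from 69134881 to 69135060, had a fold of 10.6 and passed the limit narrowly with an FDR of 0.0398. That fold was the one shared by 49281 of the list's 50417 peaks. The Map2k1 peaks in lists 2 and 3 had folds of 10.5 and 8.83 and stood above the limit, with FDRs of 0.127 and 0.0759. In list 2, 667 of 2416 peaks shared the fold of 10.5. At an FDR of at most 0.01, no Map2k1 peak was left in any list. As deposited, 3 of 3 bone cancer pain lists and 0 of 3 control lists held a Map2k1 peak (Fisher's exact test, p = 0.1, adjusted p = 1 over 29990 genes). The peaks of lists 2 and 3 shared 120 bp, the whole of the shorter peak, and both ended at 69164698 in the genome. The list 1 peak lay 27743 bp from the nearest of them, toward the 3′ end of the gene. The place that recurred in Map2k1 was therefore carried by the peaks that stood above the limit.

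In the JNK branch, Mapk9 encodes a broadly expressed JNK and Mapk10 the isoform found mainly in neurons. Mapk9 in bone cancer pain list 1 was marked by a peak on chromosome 10 (plus strand) from 35361978 to 35367379, in 4 blocks, with a fold of 1.76 and an FDR of 7.59e-09. In list 2 it had 2 peaks: one from 35356403 to 35361948 with a fold of 26.1 and an FDR of 0.00102, and one from 35372863 to 35373072 with a fold of 13.9 and an FDR of 3.02e-07. Bone cancer pain 3 and controls 1 and 2 listed no Mapk9 peak. The first list 2 peak ended 29 bp before the list 1 peak began, so the peaks of both lists lay close together without sharing a base. In control 3, a Mapk9 peak from 35373042 to 35373161 had a fold of 3.35 and an FDR of 0.0513, just outside the limit. It shared 31 bp with the second peak of bone cancer pain list 2, or 25.8% of the shorter peak. With that control peak counted, Mapk9 had 2 bone cancer pain lists against 1 control list and was not gained; the call under the limit rests on that one control peak missing it.

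Mapk10 had a single peak, in bone cancer pain list 1. It lay on chromosome 14 (plus strand) from 8242747 to 8293035, in 3 blocks that together covered 150 bp, with a fold of 2.39 and an FDR of 0.000295. No other list held a Mapk10 peak, as deposited or under the limit.

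In the p38 branch, Mapk14 encodes p38 alpha, a kinase known for its role in microglia after nerve injury. Under the limit it had a single peak, in list 1 of bone cancer pain, on chromosome 20 (plus strand) from 5974875 to 5987520, in 4 blocks, with a fold of 21.2 and an FDR of 0.000724. A second Mapk14 peak of that list, from 5994778 to 5995137, had the recurrent fold of 10.6 and an FDR of 0.0562. Mapk14 and Mapk10 thus rested on list 1 alone, and without that list neither gene had any peak.

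Mapk3 and Mapk9 were gained through the same pair of lists. Without bone cancer pain 1, or without bone cancer pain 2, 0 of the 6 genes were gained under the limit, since at least 2 lists were still required. Without bone cancer pain 3 or any control list, both remained gained. As deposited, the gained members were Mapk3 and Map2k1, and only Map2k1 was left without bone cancer pain 1 or without bone cancer pain 2.

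Spag9 differed from the kinases in having a peak under the limit in every list. Its protein holds JNK and p38 together with their activators and links vesicles to microtubule motors. Bone cancer pain lists 1, 2 and 3 held 1, 1 and 2 such peaks, and controls 1, 2 and 3 also held 1, 1 and 2 (exact permutation test on peak numbers, p = 1; adjusted p = 1). The exonic length covered was 151, 240 and 362 bp in bone cancer pain and 180, 151 and 450 bp in controls (exact permutation test, p = 1). The groups overlapped in number and in length. The bone cancer pain 2 peak ranked 921st of 1240 by p-value, and with all lists held to 899 peaks Spag9 was found in 2 of the 3 bone cancer pain lists but in all 3 of the controls.

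The Spag9 peaks did not recur at the same bases. All lay on the plus strand of chromosome 10. In bone cancer pain, list 1 had a peak from 81772417 to 81772567 with a fold of 5.29 and an FDR of 3.16e-24, and list 2 had a peak from 81816484 to 81818587 with a fold of 10.5 and an FDR of 0.00776. List 3 had peaks from 81793535 to 81794158 with a fold of 4.96 and an FDR of 6.31e-32, and from 81825256 to 81825436 with a fold of 21.0 and an FDR of 3.98e-22. The 4 bone cancer pain peaks thus lay at 4 separate places. In controls, list 1 had a peak from 81789259 to 81792320 with a fold of 4.13 and an FDR of 7.94e-22, and list 2 had a peak from 81825466 to 81825616 with a fold of 6.52 and an FDR of 0.000275. Control 3 had peaks from 81824628 to 81824777 with a fold of 35.4 and an FDR of 1e-25, and from 81826724 to 81827023 with a fold of 22.3 and an FDR of 7.59e-09. Of the 8 peaks, 4 lay in a stretch of 2396 bp at the 3′ side of the peaks, 1 of them from bone cancer pain 3 and 3 from controls 2 and 3. The other 4 peaks lay between 81772417 and 81818587.

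**Figure D2:**
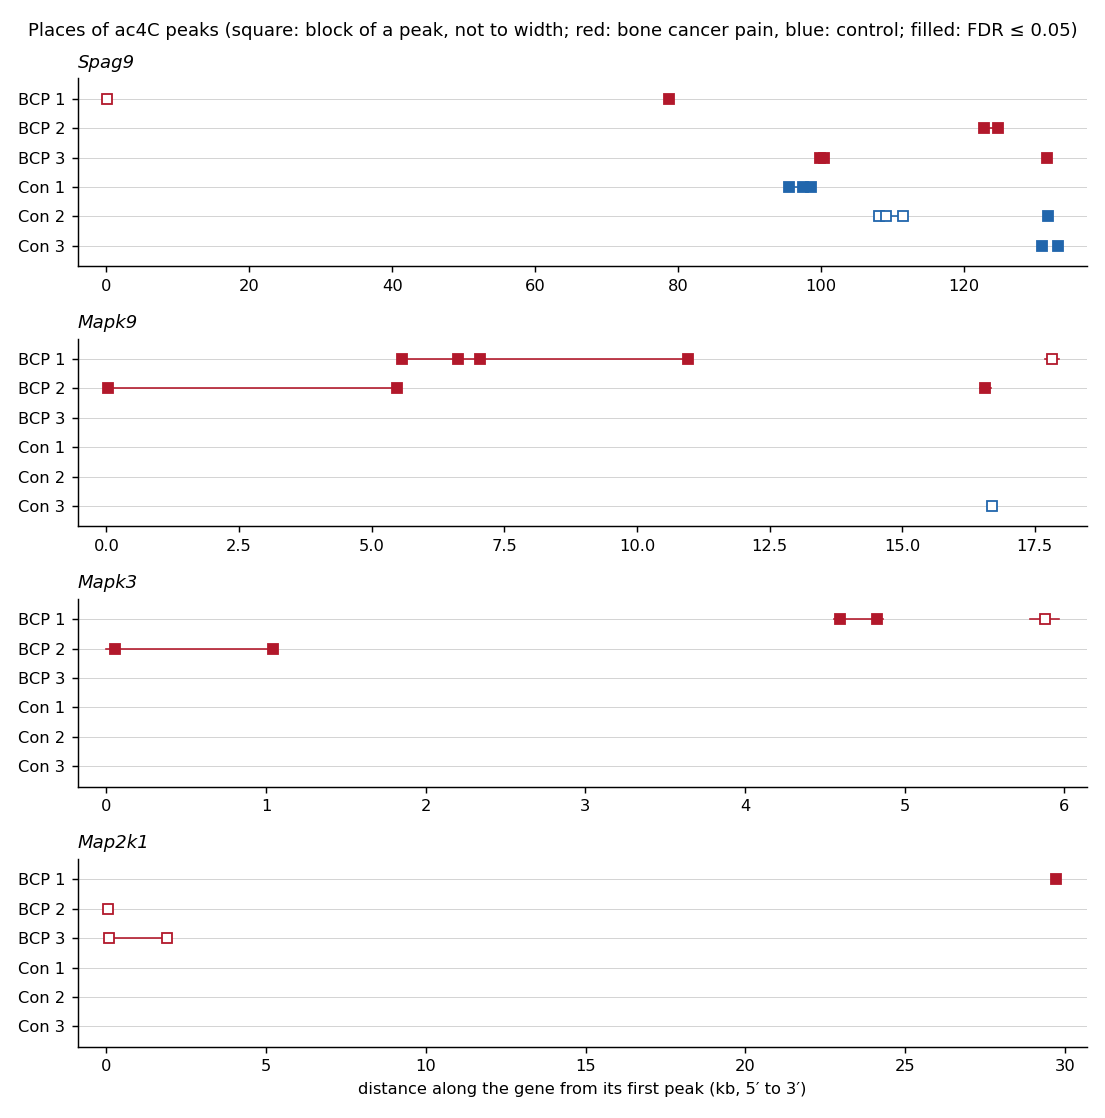
Each row is a list (BCP, bone cancer pain; Con, control), the horizontal axis is the distance in kb from the first peak of the gene in the direction of transcription, squares mark the blocks of a peak, not to width (red, bone cancer pain; blue, control; filled at an FDR of at most 0.05) and lines join the blocks of 1 peak. The Spag9 peaks of the 6 lists stand at different places with 4 of them close together at the right, and the open Map2k1 squares of BCP 2 and BCP 3 stand above each other at the left.

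The nearest pair from different lists was that of bone cancer pain 3 and control 2, which were 29 bp apart without sharing a base. Among the 14 genes with a peak under the limit in all 6 lists, 12 had peaks from different lists that shared at least 1 bp, and the exceptions were Spag9 and Syne1. Among the 818 genes with a peak in 2 lists, 184 (22.5%) had such a shared place, and neither Mapk3 nor Mapk9 was among them. When blocks within 30 bp of each other also counted, a limit added after seeing the gaps, Spag9 and Mapk9 shared a place, as did 13 of the 14 genes and 194 of the 818. Within the limits used here, the 6 genes thus had 0 places shared by exact overlap and 2 by closeness, and 2 by exact overlap as deposited (in Map2k1 and Mapk9).

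**Figure D3:**
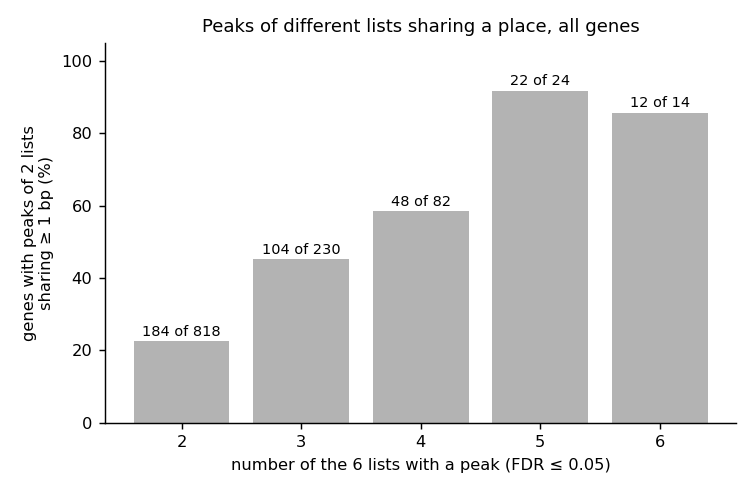
Bars give, for all genes grouped by the number of lists with a peak at an FDR of at most 0.05, the percentage in which peaks of different lists shared at least 1 bp, with the numbers of genes above each bar. The share is 22.5% at 2 lists, the group of Mapk3 and Mapk9, and 85.7% at 6 lists, the group of Spag9; these 3 genes are among those without a shared place.

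Genes close to Spag9 in number of peaks per list included Slc35e2b, Usp34, Kif5a and Syne1. Likeness was the sum over the 6 lists of the absolute difference in number of peaks, among genes with a symbol and a peak in all 6 lists. That sum was 2 for Slc35e2b (a solute carrier family member), 3 for Usp34 (a deubiquitinase), and 4 for Kif5a (a neuronal kinesin) and Syne1 (a nuclear envelope spectrin-repeat protein). Of these 4 genes, only Syne1 also lacked a shared place.

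The members' peaks were alike in form to peaks at large. Of the 16 member peaks under the limit, 9 (56.2%) had more than 1 block, that is, skipped part of the genome as spliced transcripts do, against 52.7% to 55.3% of peaks in the bone cancer pain lists and 53.5% to 55.1% in the control lists. Blocks were not matched to annotated exons here. A further 8 member peaks stood above the limit, 5 of them with an FDR of 0.0562 or less. Among these 5 were bone cancer pain list 1 peaks of Mapk9, Mapk14 and Spag9 with an FDR of 0.0562. Their fold was the 10.6 shared by 49281 of the 50417 peaks of that list.

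The RIP in bone cancer pain gave a second readout on the same transcripts. The 4 signal values of each gene are normalised by the authors in a unit that the header does not state, so levels are compared within a gene only. Folds, p-values and FDRs are from the authors' deposited table, which holds only genes with a log2 fold above 1, so every member with a row is enriched by construction. The median log2 fold of the 8671 genes in the authors' deposited table was 2.40, with quartiles of 2.07 and 2.70, and the median of the 6 members was 2.67. In the 6 members the IP and input signals did not overlap, which selection for the table favours but does not require.

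Map2k1 had the highest log2 fold of the 6 members in the authors' deposited table. It lay above Spag9 in each pair, but that order turned with a pseudocount of 1 and was not tested. Its signal was 38.5 and 37.4 in the IP libraries and 5.14 and 5.12 in the inputs, and its log2 fold in the authors' deposited table was 2.89 (FDR 9.15e-117). The log2 ratios of pairs 1 and 2 were 2.91 and 2.87, the closest pair of values among the members. It ranked 1153rd of 8671 genes by fold.

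Spag9 and Mapk3 came next in that table. Spag9 had a signal of 80.1 and 84.1 in the IP libraries and 10.8 and 13.2 in the inputs, with a log2 fold of 2.77 in the authors' deposited table (FDR 1.03e-127). Mapk3 had 134 and 128 in the IP libraries and 18.6 and 21.2 in the inputs, with a log2 fold of 2.72 in the authors' deposited table (FDR 2.43e-152). The log2 ratio of Spag9 lay slightly above that of Mapk3 in each pair, at 2.89 against 2.85 in pair 1 and 2.68 against 2.60 in pair 2. The ranges of the 2 genes overlapped, and with 2 pairs their order was not tested.

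Mapk9 and Mapk10, both JNK kinases, stood apart. Mapk9 had a signal of 75.8 and 75.4 in the IP libraries and 11.5 and 13.2 in the inputs, with a log2 fold of 2.61 in the authors' deposited table (FDR 8.08e-143). Mapk10 had 62.0 and 67.9 in the IP libraries and 19.4 and 22.7 in the inputs, with a log2 fold of 1.63 in the authors' deposited table (FDR 6.2e-47). Both pair ratios of Mapk10, 1.68 and 1.58 on the log2 scale, lay below the lowest pair ratio of the other 5 members, 2.05. Only 6.92% of the table's genes had a lower fold than Mapk10, against 68.4% for Mapk9. With 2 pairs no test of this difference was run.

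Mapk14 had the lowest signal behind its fold and the least alike pairs. It had 12.9 and 12 in the IP libraries and 1.96 and 2.90 in the inputs, and its log2 fold in the authors' deposited table was 2.35 (FDR 1.06e-36). The log2 ratio was 2.72 in pair 1 and 2.05 in pair 2, a gap of 0.67 that exceeded the gap of 87.9% of genes. The median gap of all genes was 0.25.

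**Figure D4:**
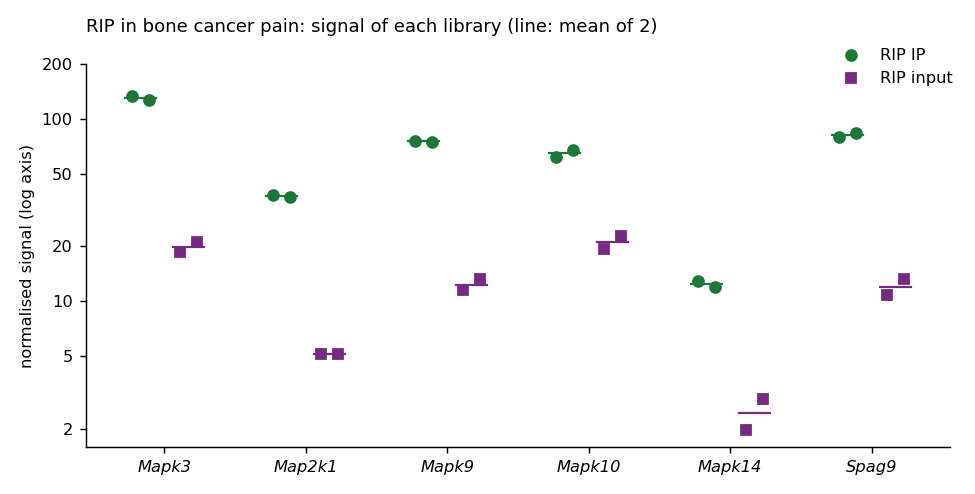
Points are the normalised signals of the 2 RIP IP libraries (circles, left) and the 2 RIP input libraries (squares, right) in bone cancer pain for each gene on a log axis, and short lines are the means. IP lies above input in all 6 genes, with the narrowest distance in Mapk10 and the widest spread between inputs in Mapk14.

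The wider pathway was described with 119 genes of MAP kinase cascades, their regulators, targets and phosphatases, of which 93 had a row in the RIP table and 87 were not among the members. Under the FDR limit, 1 of these 87 genes was gained and 0 were lost, against 1.8% gained and 1.71% lost of all 8671 genes of the table. The gained gene was Atf2, a transcription factor phosphorylated by JNK and p38. Its peaks on the minus strand of chromosome 3 had folds of 14.1 and 15.7 and FDRs of 0.00162 and 2.4e-08 in bone cancer pain lists 1 and 2, and shared no base. Like Mapk3 and Mapk9, Atf2 had no peak under the limit in bone cancer pain 3 or in the controls.

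Nf1, the Ras GTPase activating protein that restrains the ERK branch, was the only gene of the 87 with a peak under the limit in at least 4 lists. Peaks under the limit were listed for it in bone cancer pain 1, 2 and 3 and in control 2, at places that shared no base. Of all 8671 genes of the RIP table, 36.8% had a peak under the limit in any list. Of the 87 genes, 38 had such a peak: 17 in bone cancer pain lists alone, 12 in control lists alone and 9 in both, or 44.7%, 31.6% and 23.7%. The corresponding shares of all genes with a peak and a row in the RIP table were 38.3%, 37.1% and 24.6%.

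As deposited, 18 of the 87 genes were gained and 1 was lost, against 11.3% gained and 0.738% lost of all genes of the table. In that setting bone cancer pain list 1 alone held a peak in 29130 of 29990 genes. Most genes thus needed only 1 more list to count as gained, and few could count as lost. The balance of gained and lost genes is therefore not read as a direction. The lost gene was Map2k2 (MEK2), the close relative of Map2k1, found in 0 bone cancer pain lists but in 2 of the controls. Of the 18 gained genes, 8 were among the 19 genes of the JNK list that are not members. Of these 19 genes, 0 were gained under the FDR limit. The 8 included the scaffold Mapk8ip3 (JIP3), a relative of Spag9, and the kinase Map3k11, found in 3 bone cancer pain lists. Under the limit, Mapk8ip3 was found in bone cancer pain list 3 alone and Map3k11 in bone cancer pain list 2 alone.

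In the RIP, the 93 pathway genes had a median log2 fold of 2.28 in the authors' deposited table, and 37 of them stood above the table's median. Medians by list in the authors' deposited table were 2.42 for the ERK list (24 genes), 2.24 for the JNK list (22 genes), 2.30 for the p38 list (13 genes), 2.5 for ERK5 and atypical kinases (4 genes), 2.20 for downstream kinases and factors (19 genes) and 2.26 for phosphatases (11 genes). In the ERK list the highest was Nras, a Ras GTPase, at 3.13. In the JNK list the highest was Map2k4 at 2.88, an activator of JNK, and the lowest was Mapk10 itself. In the p38 list Traf6, an ubiquitin ligase upstream of TAK1, was highest at 2.89 and Tab3, a TAK1 partner, lowest at 1.26. Elsewhere the highest and lowest were Map2k5 at 2.96 and Mapk6 at 2.28, Rps6ka5 at 2.76 and Egr1 at 1.38, and Dusp3 at 2.66 and Ptprr at 1.55, all log2 folds of the authors' deposited table.

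**Figure D5:**
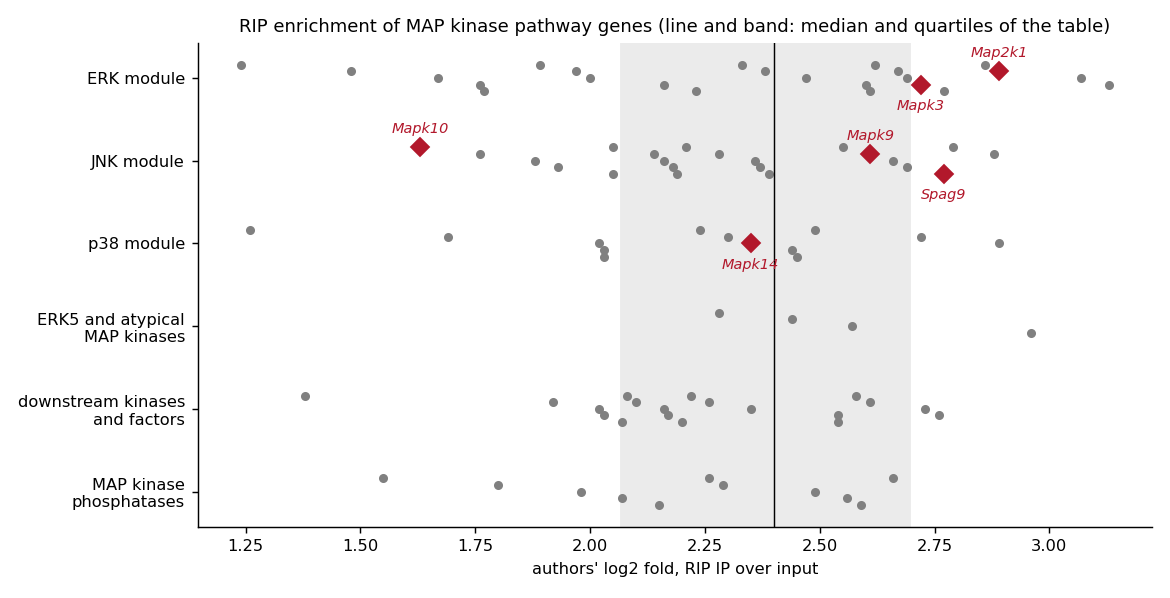
Points are the authors' log2 folds of RIP IP over input in bone cancer pain for pathway genes, 1 row per list, with the 6 members as labelled diamonds; the line and band are the median (2.40) and quartiles of all 8671 genes. Map2k1, Spag9 and Mapk3 lie right of the band, Mapk9 within it, Mapk14 just left of the median, and Mapk10 left of the band.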

How the data were processed

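The submitters' processing notes name the rn6 build, DESeq2, featureCounts 1.6.3, HOMER 4.10.4, HISAT2 2.1.0 and cutadapt 2.5, without a role for each, and no label names the peak caller. For each peak the authors deposited, per the file headers, a fold enrichment (a ratio of IP to input), a p-value, and log10 values of p and FDR. For the RIP the authors deposited a log2 fold, a p-value, an FDR and 4 normalised signal values per gene. Read depth is unknown.

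Peak starts were converted to count from 1. Peaks with an FDR of at most 0.05 were the main data, because 1 list repeats a value above it. Presence per gene was tested by two-sided Fisher's exact tests and peak numbers by exact permutation tests, adjusted over all genes with a peak (Python 3.11.15, SciPy 1.17.1), after checks on simulated data. Peaks shared a place when blocks on the same strand shared at least 1 bp. The RIP table holds only selected genes, so IP and input were not tested. The genes, pathway lists and FDR limit were chosen with earlier results of these data known. The pathway genes named are those gained, lost or with a peak in at least 4 lists, and the highest and lowest RIP fold of each list. Map2k2, Map3k11 and Mapk8ip3 were named after their values were seen, and some genes that the rules select are not reported here. Alternatives were peaks as deposited, an FDR of at most 0.01, equal list lengths, leaving out each list, covered bases, other overlaps, a pseudocount of 1 and the replicate number as a block. Sequences of peaks need an rn6 genome and were not used here.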

Additional observations from a re-analysis of the deposited data

How the results depend on the processing

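As deposited, bone cancer pain list 1 held a peak in 29130 of 29990 genes, so few genes could be lost. In that setting 1322 genes were gained and 66 lost, in place of 169 and 158 under the FDR limit. The members' peaks then shared 2 places in place of 0. That number was 1 as deposited where 0.5 of the shorter peak had to be shared, and 2 for blocks within 30 bp of each other. The last 2 settings were added after seeing the data. With each list left out in turn, the gained genes numbered 49 to 219 and the lost genes 53 to 200. The gained members then numbered 0 to 2 under the limit and 1 to 3 as deposited (also added later). At an FDR of at most 0.01 and at equal list lengths (899 peaks), Mapk3 and Mapk9 were still the gained members, but at equal lengths Spag9 had 1 list fewer in bone cancer pain than in controls (a difference of -1, against 0 under the limit). Its difference was also -1 without any 1 bone cancer pain list and 1 without any 1 control list, which follows from leaving a list out.

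Same-numbered lists did not deviate together in peak presence (correlations of -0.009, 0.004 and -0.006). Since 69.3% of the genes had a peak in 1 list only, these correlations cannot decide whether the numbers pair the groups. With the number as a replicate block, the exact sign-flip test called 0 genes, as without it, with p = 0.5 for Mapk3 and Mapk9. Its smallest p is 0.25. In the RIP, the numbered IP and input deviations correlated at -0.029, and the replicate block gave mean log2 ratios between 1.63 for Mapk10 and 2.89 for Map2k1, with 2.39 for Mapk14. With a pseudocount of 1 the log2 ratio was 2.67 for Map2k1 and 2.68 for Spag9, which turned their order, and 1.97 for Mapk14. Depth limits every statement about a missing peak: absence from a list is not absence of ac4C.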
